A study of Mus musculus with 6 samples.

Results

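The unnamed entries are the rows of the deposited miRNA table that carry no miRNA name. They were taken as every row whose ID does not begin with mmu-, the prefix of mouse miRNA names, and there were 184 of them among 1712 rows. Each of their IDs joins a leading part and a running number, as in 3_51029. The leading part was a number in 178 IDs and the letter X in 6. The other 1528 rows carry a mouse miRNA name and are called annotated entries. Small RNA had been sequenced from extracellular vesicles that osteoblasts, the bone-forming cells, released while dying by apoptosis in serum-free medium over 48 h. The control group had SIRT6f/f mice as donors, whose Sirt6 alleles are floxed, with no Cre in the label (3 libraries). The knockout group, labelled Prx1cre;SIRT6f/f, had the same floxed alleles with Cre under the Prx1 enhancer, which is active in limb bud mesenchyme, so that other lineages keep Sirt6 (3 libraries). Sirt6 encodes a NAD-dependent deacetylase of chromatin. The sources used here give no age of the mice, nor is the level of Sirt6 measured in a table of small RNAs. The labels do not say whether replicates came from separate mice or cultures, so p-values rest only on the spread between these libraries, which may be technical. For the limma p-values and SE below, this was the spread of tested rows at a like level, not that of the single entry.

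A miRNA is cut from a hairpin precursor by the nucleases Drosha and Dicer and then guides Argonaute proteins to matching mRNAs. Programs that search small RNA reads for such hairpins give each candidate a provisional ID until it is curated. Small RNA of vesicles also holds fragments of ribosomal, transfer and other RNAs, which can pile up at a fixed position as a miRNA does. The sources used here do not say which kind of RNA the unnamed rows hold, and their sequences and positions were not analysed here.

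The form of the IDs was regular. The leading parts were the numbers 1 to 19 and X, 20 in all. The running numbers went from 140 to 84230, and those of different leading parts occupied separate ranges. These ranges ascended when the leading parts were sorted as text, with 1 followed by 10 to 19, then by 2 to 9 and X. The numbers 1 to 19 and the letter X are also the names of mouse chromosomes, but whether the leading part names a chromosome is not stated in the sources used here. What the running number stands for is not stated either. Only 2 pairs of entries with the same leading part lay within 10 of each other.

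The values are RPM, reads scaled to a library total of 1000000, and each column sums to 1000000 over all rows, so a gain of abundant rows lowers the RPM of the others. The steps of the values correspond to 1352045 to 1838239 reads in a library, and 3 reads correspond to 1.63 to 2.22 RPM. Of 8 miRNAs listed for mesenchymal cells and osteoblasts, 7 had values. They summed to 134246 to 150565 RPM in the control and 62089 to 107461 RPM in the knockout libraries. Whether this list is specific to the donor cells was not tested. Blood cell miRNAs summed to at most 205 RPM, endothelial to 63.6 RPM, epithelial to 29.2 RPM, muscle to 85.1 RPM, liver to 18.7 RPM and neuronal to 6.78 RPM in any library. The summed mesenchymal, blood cell, endothelial, muscle and liver levels were lower in every knockout library than in every control library. The 5 annotated entries listed as fragment-like, possible pieces of ribosomal or transfer RNA, went the other way: they summed to 19641 to 38316 RPM in control and 64247 to 76162 RPM in knockout libraries, 2.64 times as high in the mean. The part of these levels in the results below was not tested.

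Unnamed entries held about as many reads as the annotated ones, although they were few. Their share of all listed reads was 43.1%, 50.01% and 49.6% in control replicates 1 to 3 and 54.3%, 52.8% and 62.8% in knockout replicates 1 to 3. Every knockout library lay above every control library, as for the summed fragment-like entries, and knockout replicate 3 stood highest. The difference of the means was 9.03 percentage points (exact 2-sided permutation p = 0.1, which no comparison of 3 with 3 libraries can undercut; Benjamini-Hochberg adjusted p = 0.6 over 6 measures of composition). It was 5.96 points without knockout replicate 3. Each share has a Wilson 95% interval from counting error alone, which for knockout replicate 3 was 62.7% to 62.8%. Shares of reads do not give amounts of RNA, and in bulk vesicle RNA fewer vesicles of a kind and less RNA per vesicle cannot be told apart.

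The reads were concentrated in a small number of rows. Within a library, 4 or 5 unnamed entries held 50% of the unnamed reads, 16 to 19 held 90% and 32 to 37 held 99%. For the annotated entries, a longer list, the numbers were 7 to 9, 36 to 41 and 148 to 158. The most abundant unnamed entry of a library took 14.1% to 24.5% of its unnamed reads, and the 32 most abundant took 98.2% to 99.04%. The remaining rows were low: the median unnamed entry had 4.62 to 7.21 RPM, and the median annotated entry 1.09 to 1.48 RPM.

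**Figure D1:**
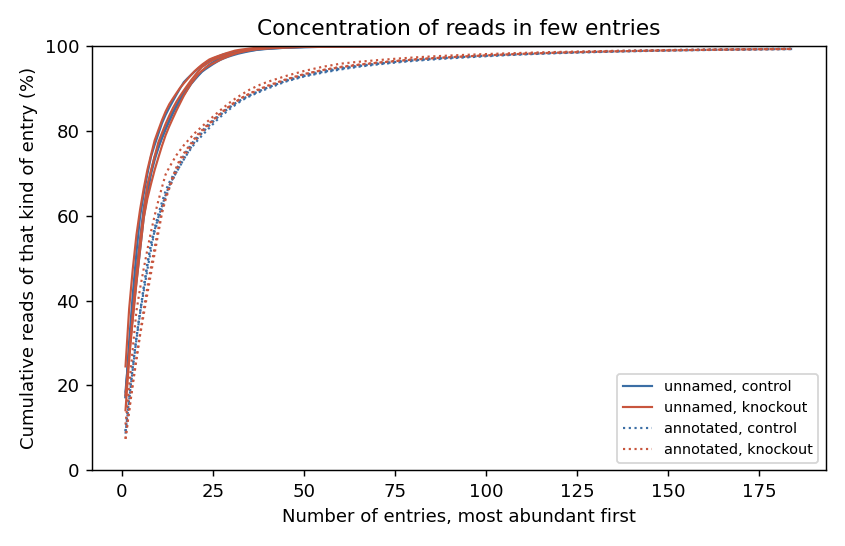
Cumulative percentage of the reads of unnamed entries (solid lines) and of annotated entries (dotted lines) against the number of entries, most abundant first, drawn up to 184 entries, with 1 line per library in blue for control and red for knockout. The unnamed curves reach 90% with 16 to 19 entries and the annotated ones with 36 to 41.

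With all unnamed entries counted, measures of this concentration did not separate the groups. The 10 unnamed entries with the highest mean over all libraries took 75.4% ± 3.16 of the unnamed reads in control and 75.4% ± 2.69 in knockout libraries (mean ± SD of 3 libraries a group, n = 3, exact permutation p = 1). The effective number of unnamed entries, the inverse of the summed squared shares, was 12.3 ± 0.778 in control and 11.9 ± 2.23 in knockout libraries (n = 3 each, exact permutation p = 1). Its value in knockout replicate 3 was 9.35, below the 11.5 to 13.2 of the other libraries, and without that library the difference turned from -0.38 to 0.91. Without the most abundant unnamed entry, 3_51029, it was 1.95, with every knockout library above every control library (exact permutation p = 0.1, the smallest possible). The number of unnamed entries above 0 ran from 142 to 170 in control and from 143 to 162 in knockout libraries (exact permutation p = 0.8 for n = 3 each). These p-values do not show that the groups were alike.

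Unnamed entries ranked high among all rows. The most abundant row was unnamed in each of the 6 libraries: it was 4_54497 in the 3 control libraries, 4_57299 in knockout replicate 1 and 3_51029 in knockout replicates 2 and 3. In a library, 5 to 7 of the 10 most abundant rows were unnamed, as were 9 to 11 of the 20 most abundant and 22 to 24 of the 50 most abundant. Among the 100 most abundant rows, 35 to 37 were unnamed in the control and 37 in each knockout library (exact permutation p = 0.4 for n = 3 each). Of the 29 rows with a mean of at least 10000 RPM, 14 were unnamed and 15 annotated. At a mean below 1 RPM there were 20 unnamed rows, 10.9% of them, and 708 annotated rows, 46.3% of them.

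Most unnamed entries were also seen in most libraries. Of the 184, 109 (59.2%) were above 0 in all 6 libraries and 3 (1.63%) in 1 library only. Of the annotated entries, 433 (28.3%) were above 0 in all 6 and 331 (21.7%) in 1 only. Annotated entries were also more often below 1 RPM, and the part of the level in these counts was not tested. Of the unnamed entries, 8 were listed above 0 in control libraries only and 2 in knockout libraries only, while of the annotated entries 197 were listed in control libraries only and 260 in knockout libraries only.

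The most abundant unnamed entry by the mean over all libraries was 3_51029. It had 42487, 42616 and 39680 RPM in control replicates 1 to 3 and 59622, 93133 and 153525 RPM in knockout replicates 1 to 3. The control libraries lay within 1.07-fold of each other, whereas the highest knockout value was 2.57 times the lowest, and the groups did not overlap. The rise was 1.19 ± 0.38 (log2 fold change ± SE on the log2(RPM + 1) scale, limma adjusted p = 0.0426). It no longer passed when any library other than knockout replicate 1 was left out (limma adjusted p from 0.0631 without knockout replicate 2 to 0.2075 without control replicate 3). Scaling to annotated entries gave 1.47 (limma adjusted p = 0.0610), scaling to unnamed entries 0.94 (limma adjusted p = 0.172) and quantile normalization 0.92 (limma adjusted p = 0.140). The call was also lost with a pseudocount of 0.5 (limma adjusted p = 0.0709).

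The entry 4_57299 showed the largest rise among unnamed entries past the threshold. It had 20316, 13650 and 13691 RPM in the control and 76800, 45215 and 85276 RPM in the knockout libraries. The lowest knockout value was above the highest control value, and the ratio of the group means was 4.35. The rise was 2.10 ± 0.36 on the same scale (limma adjusted p = 7.28e-07), and it passed whichever library was left out, with values from 1.92 to 2.37.

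Entry 4_54497 led the control libraries. It had 79867, 85868 and 85629 RPM in the control and 64779, 46801 and 50095 RPM in the knockout libraries. The groups did not overlap, but the log2 fold change of -0.65 ± 0.38 did not pass the test (limma adjusted p = 0.341). It bears the same leading part as 4_57299, which rose, so entries that share a leading part did not all have the same sign.

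Of the other entries among the 10 most abundant, only the tenth passed the test, and it is described further on. Entry 9_77489 had 40122, 66388 and 41267 RPM in the control and 50286, 40179 and 58903 RPM in the knockout libraries, with a log2 fold change of 0.04 ± 0.37. Entry 1_1770 had 39406, 55649 and 53187 RPM in the control and 37343, 40714 and 37636 RPM in the knockout libraries. In both the groups overlapped and the test was not passed (limma adjusted p = 0.952 and 0.673). Entries 2_48125 (0.26), 6_66445 (-0.57), 7_69264 (-0.32) and 7_71832 (-0.85) also overlapped between the groups and did not pass, with limma adjusted p from 0.107 to 0.735. Entry 7_71832 was the closest to the threshold and varied 2.95-fold among the knockout libraries. It passed without knockout replicate 2, with a fall of 1.21 (limma adjusted p = 0.0330).

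**Figure D2:**
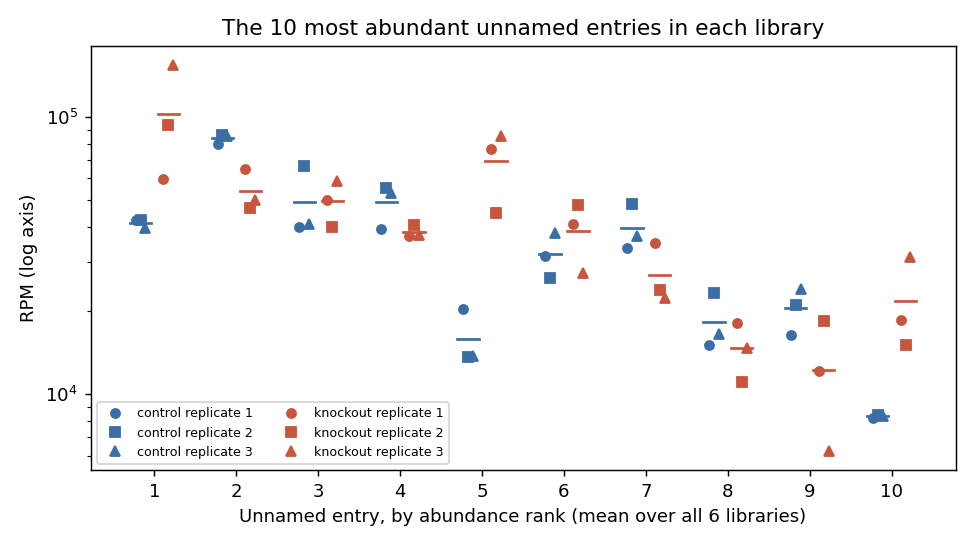
RPM (log axis) of the 10 most abundant unnamed entries, ordered by their mean over all libraries, with 1 point per library (blue control, red knockout; circle, square and triangle for replicates 1, 2 and 3) and a bar at each group mean. The entries ranked 1 (3_51029), 5 (4_57299) and 10 lie higher in all 3 knockout libraries, the entry ranked 2 (4_54497) lies lower in all 3, and the others overlap.

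The rise of 2 entries exceeded the whole difference between the groups. Together 3_51029 and 4_57299, picked here for their rise, had 5.75% of all reads in control and 17.1% in knockout libraries, a difference of 11.4 percentage points against 9.03 for all unnamed entries. The other 182 unnamed entries had 36.9%, 44.4% and 44.2% of all reads in the control libraries and 40.6%, 38.9% and 38.9% in the knockout libraries, and the groups overlapped. As a share of the reads outside the 2 entries, they had 44.4% ± 4.37 in control and 47.8% ± 2.997 in the knockout libraries (n = 3 each, exact permutation p = 0.4). The direction for these 182 entries thus depended on whether the 2 entries were in the denominator. The 71 unnamed entries with a higher knockout mean gained 170985 RPM in sum, and the 113 with a lower knockout mean lost 80693 RPM, a split made by the outcome itself and given as a description.

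**Figure D3:**
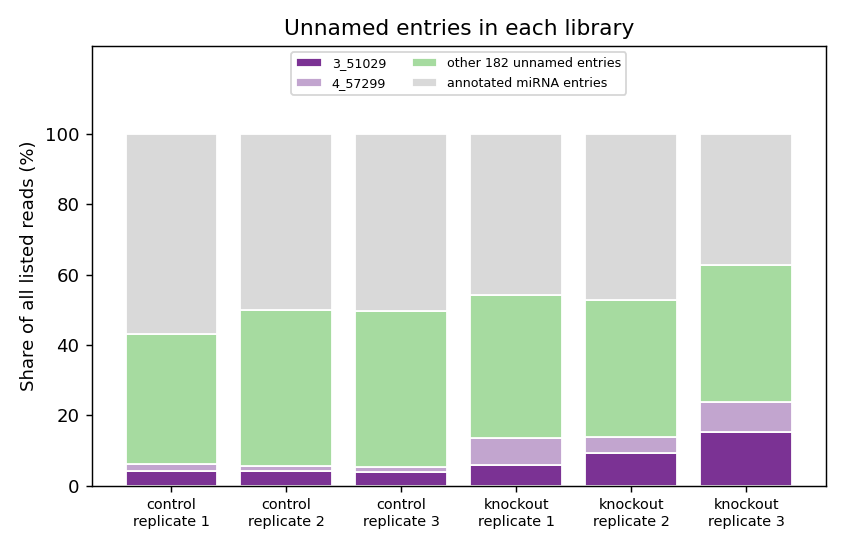
Share of all listed reads (%) in each library, as stacked bars, taken by 3_51029, by 4_57299, by the other 182 unnamed entries and by the annotated entries. The segments of 3_51029 (dark purple) and 4_57299 (pale purple) together cover 5.75% of reads on average in control and 17.1% in knockout libraries. The segment of the other 182 entries overlaps between the groups.

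Outside the 10 most abundant entries the unnamed share was small, and its ratio of group means (1.18) was near that of the 10 (1.19). The other 174 entries had 10.4%, 10.8% and 13.8% of all reads in the control and 12.9%, 14.5% and 14.0% in the knockout libraries. Control replicate 3 reached into the knockout range (exact permutation p = 0.2 for n = 3 each, Benjamini-Hochberg adjusted p = 0.6). The difference was 2.13 percentage points, 3.20 without control replicate 3 and 0.61 without the unnamed entries past the limma threshold, a setting added after seeing the data. Nearly all of this lay in the entries ranked 11 to 32, and the 152 entries below them had 0.755% and 0.759% of all reads in the group means.

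Across all rows, limma tested those with at least 1 RPM in at least 3 libraries, 1114 in all, of which 164 were unnamed. The other 20 unnamed entries were too low in most libraries and were not tested. Of the 164, 8 were higher and 1 was lower in the knockout group at an adjusted p under 0.05. Over all tested rows 4.85% passed by the same rule, 2.15% higher and 2.69% lower. The split was 8 to 1 with scaling to all reads, 11 to 0 with scaling to annotated entries, 12 to 0 with median centring, 10 to 0 with quantile normalization and 2 to 1 with scaling to the unnamed entries. Over all tested rows the same splits were 24 to 30, 27 to 5, 32 to 8, 32 to 16 and 9 to 31, so the scaling shifted the whole table. With scaling to the unnamed entries, the 2 higher unnamed ones were 4_57299 and the one ranked 13. Leaving out control replicates 1, 2 or 3 left 4, 3 and 2 higher and 0, 1 and 0 lower, and leaving out knockout replicates 1, 2 or 3 left 6, 4 and 10 higher and 0, 3 and 0 lower. Over all tested rows these fits left 18, 15 and 9 higher and 3, 7 and 2 lower without a control library. Without a knockout library they left 19, 16 and 26 higher and 28, 37 and 23 lower. Scaling to annotated entries moved the median over all tested rows from -0.27 to -0.08. The fit took its spread wholly from the trend over all rows, so an entry's own spread between libraries had no weight in its SE or p-value. Without that trend 0 unnamed entries passed in limma (at an unadjusted p under 0.05, 8 lay higher and 4 lower).

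The 8 higher entries were abundant ones. All lay among the 39 most abundant unnamed entries, ranked 1, 5, 10, 13, 19, 29, 31 and 39, and in each of them every knockout library was above every control library. Calls were mostly abundant rows in the whole table too: of the 54 rows past the threshold, 51 averaged 10 RPM or more. At 1000 RPM or more, 8 of 32 unnamed and 12 of 51 annotated entries passed in either direction, and 20 of 83 over all rows. The entry ranked 13 had 6124, 3995 and 6740 RPM in the control and 11659, 14711 and 21454 RPM in the knockout libraries. Its log2 fold change was 1.49 ± 0.32 (limma adjusted p = 0.000329) and it passed whichever library was left out. The entry ranked 10 had 8243, 8431 and 8342 RPM in the control and 18530, 15093 and 31289 RPM in the knockout libraries. Its control values lay within 1.02-fold of each other, the tightest of the unnamed entries averaging 1000 RPM or more. It rose by 1.31 ± 0.33 (limma adjusted p = 0.00412), and the call was lost without control replicate 3 (limma adjusted p = 0.0892).

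The remaining 4 rises were about 2-fold. The entry ranked 19 had 4182, 3216 and 4105 RPM in the control and 7396, 7708 and 7958 RPM in the knockout libraries (ratio of the means 2.005, limma adjusted p = 0.0296). The entry ranked 29 went from a mean of 999.6 to 2050.02 RPM (limma adjusted p = 0.0116), that ranked 31 from 847 to 1797 RPM (limma adjusted p = 0.0103) and that ranked 39 from 259 to 501 RPM (limma adjusted p = 0.0296). With 1 library left out, the entry ranked 29 no longer passed without control replicates 2 or 3 or knockout replicate 2 (limma adjusted p = 0.154, 0.118 and 0.0564), and that ranked 31 without any 1 of the control replicates (0.0899 to 0.0984). The entries ranked 19 and 39 passed only without knockout replicate 3 (otherwise 0.0550 to 0.163 and 0.0621 to 0.258).

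The only lower unnamed entry was 2_48053, ranked 26. It had 2696, 1817 and 3464 RPM in the control and 1438, 2109 and 718 RPM in the knockout libraries. Control replicate 2 lay below knockout replicate 2, so the groups overlapped. Its log2 fold change was -0.99 ± 0.29 (limma adjusted p = 0.0238). It passed without control replicate 2 or knockout replicate 2, and with any other library left out it did not (limma adjusted p from 0.0534 to 0.290, and a value of -0.56 without knockout replicate 3). Scaling to annotated entries gave -0.71 (limma adjusted p = 0.229).

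**Figure D4:**
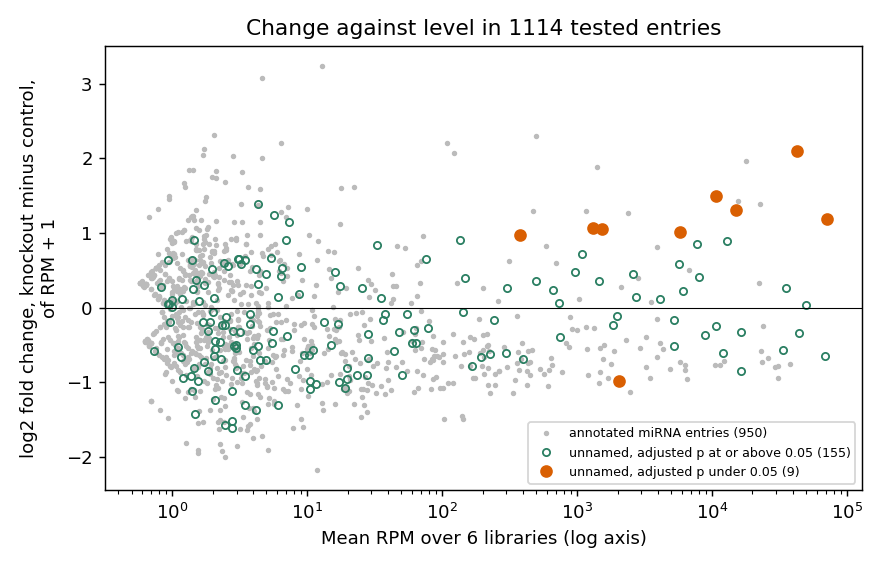
Log2 fold change of RPM + 1 (knockout minus control) against the mean RPM over 6 libraries (log axis) for 1114 tested rows: annotated entries in grey, unnamed entries as open green circles and the 9 unnamed entries past the threshold as filled orange circles. The 8 higher ones are all among the 39 most abundant unnamed entries, and at lower levels no unnamed entry is past the threshold. Of the 54 rows of either kind past the threshold, 51 average 10 RPM or more.

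Among rows averaging 1000 RPM or more, more unnamed entries lay above 0 than below, and more annotated entries below 0 than above. Of the 32 unnamed entries averaging 1000 RPM or more, 19 lay above 0 and 13 below, with a median log2 fold change of 0.18. Of the 51 annotated entries at that level, 13 lay above 0 and 38 below, with a median of -0.58. The unnamed excess lay at 1000 to 10000 RPM (12 above 0, 6 below). The 14 unnamed entries at 10000 RPM or more split 7 to 7, with a median of -0.10, and the 16 at 100 to 1000 RPM split 8 to 8. In each of these bands more annotated entries lay below 0 than above. Between 10 and 100 RPM the medians were close, at -0.48 for 32 tested unnamed and -0.55 for 146 annotated entries. Over all tested rows the median was -0.27, with -0.22 for the 164 unnamed and -0.27 for the 950 annotated ones. These are descriptions, since all rows share the total of a library.

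The groups did not overlap for 29 of the 164 tested unnamed entries (17.7%), 11 of them higher and 18 lower in the knockout group. Over all tested rows the share was 25.6%, with 6.28% higher and 19.3% lower. At a mean of at least 1000 RPM the groups did not overlap for 11 of 32 unnamed entries (34.4%) and for 42 of 51 annotated ones (82.4%).

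At 100 RPM and above, the median spread between control libraries was wider for unnamed than for annotated entries. At a mean of at least 1000 RPM, the coefficient of variation over the 3 control libraries had a median of 23.7% for the 32 unnamed and 9.36% for the 51 annotated entries. It exceeded 20% in 18 unnamed and 8 annotated entries. In the knockout libraries the medians were 24.8% and 26.6%, with 21 and 37 entries above 20%. At 100 to 1000 RPM the control medians were 19.5% for 16 unnamed and 10.7% for 77 annotated entries, and at 10 to 100 RPM they were 21.0% and 21.9%. The difference between the kinds of entry was not tested.

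Single libraries stood out in some entries. Entry 11_16207, ranked 12, had 9080, 9894 and 27135 RPM in the control and 6562, 9728 and 10750 RPM in the knockout libraries, so control replicate 3 alone was high (coefficient of variation in the control group 66.3%). Entry 5_59570 was listed at 97.7 RPM in control replicate 3, at 5.05 RPM in control replicate 1 and at 0 in the other 4 libraries. It was the highest of the 10 unnamed entries listed in 1 group only, and it was named after its values were seen, as was 11_16207. Among the 81 unnamed entries averaging 10 RPM or more, knockout replicate 3 was the lowest knockout library in 42 (51.9%), against 222 of 274 annotated entries (81.0%). Control replicates 1 and 2 were the lowest control library in 37 and 34 of these 81, and control replicate 3 in 10. For the 274 annotated entries the counts were 41, 137 and 96 for control replicates 1, 2 and 3.

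Across these 81 entries, libraries ordered the unnamed entries alike. Spearman's rho ranged from 0.973 to 0.983 for pairs of control libraries, from 0.974 to 0.990 for pairs of knockout libraries and from 0.957 to 0.984 for pairs across groups. For the 274 annotated entries at that level these ranges were 0.975 to 0.980, 0.952 to 0.982 and 0.906 to 0.965. These correlations are across entries, which are not independent replicates.

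Reads shared between rows can make rows move together. None of the 81 unnamed entries averaging 10 RPM or more came within 0.15 of any other row on the log2(RPM + 1) scale in all 6 libraries. The smallest such gap was 0.27. This compares levels only: rows that share part of their reads can lie further apart, so sharing of reads was not tested. Identical values in all 6 libraries were found for 5 unnamed entries in 4 sets, which also held annotated entries, with no value above 3.07 RPM. At 2 to 5 reads such ties are of little weight. Entries 3_50776 and 3_50779, whose running numbers lie 3 apart, had ratios between 0.278 and 1.31 over the libraries, so they did not move in proportion.

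Reads were spread unevenly over the leading parts of the IDs. The leading part 4 took 21.4% of the unnamed reads on average with 7 entries, 1 took 16.1% with 15, 3 took 14.8% with 12 and 2 took 11.2% with 17. Together these 4 leading parts held 27.7% of the entries and 63.5% of the unnamed reads. At the other end, 7 leading parts (13 to 19) held 40 entries and 0.861% of the unnamed reads. The number of entries therefore did not set the share: 15 entries with leading part 7 had 6.68%, and 12 with leading part 5 had 1.08%.

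In 15 of the 20 leading parts a single entry held more than 50% of the reads. The most abundant entry made up 89.9% of the reads of leading part 3 (3_51029), 99.8% of leading part 6 (6_66445), 97.7% of leading part 9 (9_77489) and 82.1% of leading part 11 (11_16207). Leading part 4 was made up of 4_54497 (61.8%) and 4_57299 for the most part. Leading parts 1 and 7 were more divided, with 52.7% in 1_1770 and 48.6% in 7_69264.

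The share of unnamed reads differed between the groups without overlap for 5 of the 20 leading parts (25%). For leading part 3 it was 11.4%, 10.6% and 9.47% in the control and 12.7%, 19.1% and 25.7% in the knockout libraries. For leading part 6 it was 8.36% ± 1.22 in control and 4.84% ± 1.48 in knockout libraries, and for leading part 7 it was 8.35% ± 0.785 and 5.01% ± 1.38 (n = 3 each). Leading parts 1 and 11 were also lower in every knockout library by this share. As a share of all reads, however, leading part 1 had a mean of 8.15% in control and 8.53% in knockout libraries. The means of leading parts 6, 7 and 11 were lower in the knockout group by that share too. Each of these 5 had an exact permutation p = 0.1 and a Benjamini-Hochberg adjusted p = 0.4 over 20 leading parts, so none passed. With 1 library left out, 6 to 10 leading parts did not overlap (9 without control replicate 2 and 10 without knockout replicate 2), since fewer libraries make overlap rarer. As shares of the unnamed total, a rise of 3_51029 alone lowers the shares of the other leading parts. Leading part 4 showed 21.1% ± 1.88 and 21.7% ± 4.32 (exact permutation p = 0.8 for n = 3 each), mainly the sum of 1 entry that rose and 1 that was lower in every knockout library.

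**Figure D5:**
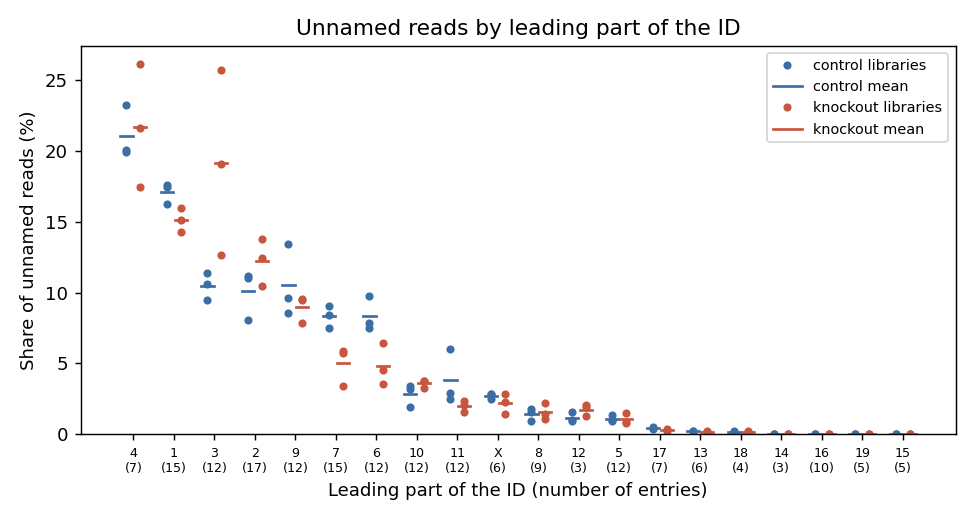
Share of the unnamed reads (%) by the leading part of the ID, ordered by the mean share, with the number of entries in parentheses, a point for each library and a bar at each group mean (blue control, red knockout). Leading part 3 lies higher in all 3 knockout libraries, leading parts 1, 6, 7 and 11 lie lower, and the 7 at the right each have a mean below 0.5%.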

How the data were processed

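The authors deposited 1 table of RPM values for 3 control and 3 knockout libraries; groups come from the sample titles. The submitters' processing notes, as the authors deposited them, name fastp and edgeR without a role or version. No source used here states the aligner, the miRNA annotation, the genome build or how the unnamed IDs arose. In every column the deposited RPM values were whole multiples of a step, within 0.001 read, whose double was the lowest value above 0, so none stands for 1 read. The steps are thus incomplete counts, and no count model was run.

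Rows with at least 1 RPM in at least 3 libraries were tested with limma 3.58.1 in R 4.3.3 on log2(RPM + 1) with a mean-variance trend, 2-sided, Benjamini-Hochberg adjusted over 1114 rows at 0.05. Fold changes on this scale understate those of low entries. Compositions were compared with exact permutation tests (SciPy 1.17.1). Intervals and limits cover counting error only, since reads without molecular identifiers are not independent molecules. The named entries are the 10 most abundant unnamed ones, those past the threshold, and others named with that remark. IDs are printed for at most 2 entries that rose; the rest are called by rank. The fits were also run on simulated data with the same spread in both groups, and that run does not vouch for the calls made here. Members and lists were chosen with earlier results of these data known.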

Additional observations from a re-analysis of the deposited data

How the results depend on the processing

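The count of higher unnamed entries, 8, became 2 with scaling to unnamed entries, 0 without the trend and 5 with the replicate block (limma adjusted p = 0.0801 for 3_51029); leaving out 1 library gave 2 to 10. The count of lower ones, 1, became 0 with a pseudocount of 0.5, without the trend, with the replicate block and with scaling to annotated entries, median centring or quantile normalization, 2 without the filter and 4 at a mean of at least 10 RPM; leaving out 1 library gave 0 to 3. Over all tested rows, 24 higher and 30 lower became 9 and 31 with scaling to unnamed entries, 0 and 0 without the trend and 19 and 11 with the replicate block. They became 21 and 15 with a pseudocount of 0.5 or without the filter, and 27 and 71 at a mean of at least 10 RPM. The cause of these changes was not tested. Over all tested rows, same-numbered libraries did not deviate together (r = 0.0055, -0.024 and 0.011 for replicates 1, 2 and 3). Many of these rows were low and each group had 3 libraries, so this does not settle whether the numbers mark pairs. The difference in the share of unnamed reads was 5.96 to 10.9 points with 1 library left out and 6.47 without 3_51029. Without 3_51029 and 4_57299, chosen after seeing the data, it was 3.41 points of the remaining reads but -2.34 points of all reads. The share of the top 10 entries, 0.010 points, was -1.49 without 3_51029, -0.078 with each library's own top 10, and -1.66 to 1.51 with 1 library left out. The effective number, -0.38, was 1.95 without 3_51029 (exact permutation p = 0.1) and -1.03 to 0.91 with 1 library left out. The number listed, -5.67, went from -13.5 to 0.50. Entry 9_77489 (0.04) had -0.21 with scaling to unnamed entries, -0.085 with quantile normalization and -0.092 to 0.27 with 1 library left out. Leading parts without overlap, 5, were 6 to 10 with 1 library left out, where fewer libraries make overlap rarer. The edgeR and DESeq2 alternatives were not run, because the steps give no complete counts.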
